A study of Mus musculus with 11 samples.

Results

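The mesenchymal miRNAs miR-143, miR-145a, miR-199a, miR-199b and miR-214 were examined in small RNA libraries of mouse spermatogonial progenitor cells (SPCs) with and without knockdown of the RNA helicase gene Mov10. Members were taken by name, as every miRNA entry with the stem miR-143, miR-145 (letter a or none), miR-199a, miR-199b or miR-214 and either arm, a rule that uses no measured value. This gave 10 of the 1096 mature miRNAs listed. The name miR-145b belongs to a separate gene and was not a member. It had 2 reads in the control library and 0 in the knockdown library, where a count of 0 allows a level of up to 0.939 TPM.

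SPCs are Thy1-positive germ cells of mouse pups, labelled as postnatal day 6, that are propagated on mitotically inactivated STO cells, a feeder layer of mouse embryo-derived fibroblasts. The labels name the strain C57BL/6 and the methods name B6;129S-Gt(Rosa) 26Sor/J mice. Both groups were transduced with lentivirus and replated on feeder cells, the control with the vector named shVector and the knockdown with an shRNA that targets Mov10. The labels of the small RNA libraries do not name the shRNA construct, and Mov10 mRNA, which small RNA libraries do not hold, was not analysed here. Each group was represented by 1 library, and differences between the libraries therefore have no replicate error. Reads were expressed by the authors as TPM, here the reads per 1000000 reads of a library total without length correction, and the totals were 10518277 reads for the control and 3194363 reads for the knockdown. 1 read thus counted as 0.0951 TPM in the control but as 0.313 TPM in the shallower knockdown library. All intervals given are 95% intervals that cover counting error only.

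A miRNA gene is transcribed as a long primary transcript, from which a hairpin is cut. The hairpin yields a mature RNA from its 5′ side (5p arm) and another from its 3′ side (3p arm), of which usually one is retained in Argonaute proteins and the other is degraded. miR-143 and miR-145 are known for their abundance in smooth muscle cells and fibroblasts, where they act on the contractile and cytoskeletal program. miR-199a and miR-214 are made together in mesenchymal cells and are known from skeletal development and fibrosis. In the present culture a mesenchymal miRNA can come from feeder cells, from other somatic cells or from germ cells, and fewer cells of a type cannot be told apart from less RNA per cell.

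The mature sequences below show which members share a seed, the bases 2 to 8 that pair with target mRNAs, and which cannot be separated by sequencing. They were taken from RefSeq (GRCm38.p6), which gave a sequence for 5 of the 10 members, and are written 5′ to 3′ with the seed in capitals.
miR-199a-5p: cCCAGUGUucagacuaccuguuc
miR-199a-3p: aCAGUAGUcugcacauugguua
miR-199b-3p: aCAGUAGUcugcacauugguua
miR-214-5p: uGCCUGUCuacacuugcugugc
miR-214-3p: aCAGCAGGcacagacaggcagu
The 3p forms of miR-199a and miR-199b were identical over all 22 bases. The seed of miR-214-3p matched that of the miR-199 3p forms at 5 of 7 positions, so these miRNAs have different seeds. Among the 908 listed miRNAs with a RefSeq sequence, no miRNA other than the miR-199a-3p and miR-199b-3p pair shared a seed with a member shown here. miR-199b-5p had no sequence there, so whether it shares the seed of miR-199a-5p was not compared.

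The members of the miR-199 and miR-214 families lie at 3 loci of GRCm38, each inside a dynamin gene. Mir199a-2 (chr1:162217814-162217923, plus strand) and Mir214 (chr1:162223368-162223477, plus strand) lie 5444 bp apart, and both fall within exon sequence of the only transcript annotated for the noncoding gene Dnm3os. On the opposite strand they lie in introns of Dnm3. Mir199a-1 (chr9:21496495-21496564, minus strand) lies opposite an intron of Dnm2. Mir199b (chr2:32318460-32318569, plus strand) lies opposite an intron of Dnm1. Both Mir199a hairpins encode the same miR-199a-5p and the same miR-199a-3p, so the reads of these forms cannot be assigned to a locus.

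The 10 members together took 3.02% of all miRNA reads of control SPCs (291091 reads) and 3.69% of those of Mov10 knockdown SPCs (103236 reads). Almost all of these came from a single arm of miR-143 and from miR-199. miR-143-3p alone made up 66.3% of the members' control reads and 62.2% of their knockdown reads, and miR-199a-3p made up 16.0% and 19.5%. The lowest member was miR-143-5p at 2.85 and 2.82 TPM. All 10 were above the minimum of 1.5 TPM used by the study, in both libraries. From high to low, the order in both libraries was miR-143-3p, miR-199a-3p, miR-199b-3p, miR-199a-5p, miR-214-3p, miR-145a-5p, miR-214-5p, miR-199b-5p, miR-145a-3p and miR-143-5p. Counting intervals of neighbours in this order overlapped for miR-199b-3p and miR-199a-5p and for miR-199b-5p and miR-145a-3p in the control, and for miR-145a-5p and miR-214-5p in the knockdown.

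**Figure D1:**
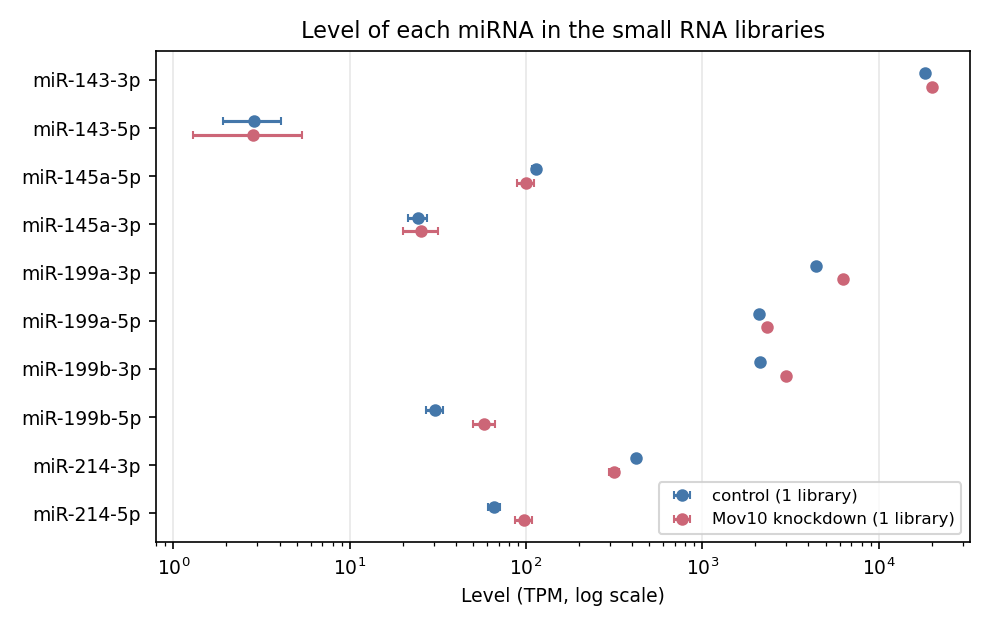
Level of each member in TPM (log axis) in the control library (blue) and the Mov10 knockdown library (red), with 95% exact binomial counting intervals and 1 library per group. miR-143-3p was the highest member in both libraries at 18362 and 20113 TPM, and miR-143-5p the lowest at 2.85 and 2.82 TPM.

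With the deposited TPM, 1 of the 10 members (miR-199b-5p) was raised over 1.5-fold in the knockdown library and 0 were reduced over 1.5-fold. Of all 607 miRNAs above 1.5 TPM, 15.8% were raised and 41.5% reduced. The median log2 change was 0.14 for the members and -0.37 for all 607, and the members lay between percentile 47.8 (miR-214-3p) and percentile 91.6 (miR-199b-5p) of the 607 changes. After scaling by the median ratio, which shifts every value by 0.25 on the log2 scale, 4 members were raised and 0 reduced, with 144 raised and 191 reduced among all miRNAs against 96 and 252 with the deposited TPM. Counts and medians over the members take miR-199a-3p and miR-199b-3p, which are identical in sequence, as separate entries, and both were among these 4. After division of both libraries by 1 common total, which shifts every value by -1.72, all 10 members were below 0 and past 1.5-fold. miR-214-3p was below 0 with the deposited TPM and under each of the 5 other scalings run (-0.17 to -2.14), and it passed the exact binomial test in each. The other 9 members changed sign between scalings, and whether the smaller knockdown library reflects less small RNA or less sequencing cannot be told apart with 1 library a group.

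An exact binomial test of the reads, adjusted over all 1096 miRNAs, compares the 2 libraries and not the conditions. It gave a higher share in the knockdown for 6 members and a lower share for 1, against 10.7% and 21.4% of all miRNAs, and 3 members (miR-143-5p and both arms of miR-145a) did not pass. The 6 include miR-199a-3p and miR-199b-3p, which are 1 RNA by sequence. The 7 members that passed had at least 185 reads in each library, and the more deeply counted of them passed with small differences.

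**Figure D2:**
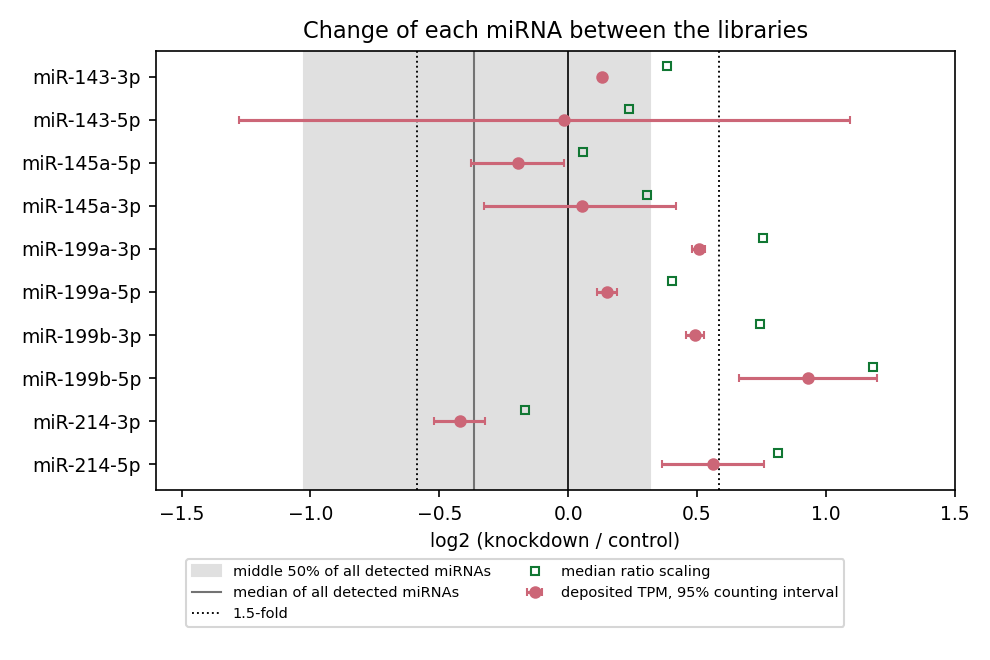
log2 of the knockdown to control ratio for each member with the deposited TPM (red, 95% counting interval) and after median ratio scaling (green squares), with the median and middle 50% of all 607 detected miRNAs in grey and the 1.5-fold limits dotted. With the deposited TPM, miR-199b-5p lay at 0.93 and miR-214-3p at -0.42, on opposite sides of 0, whereas with 1 common total for both libraries all 10 members lay below 0.

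miR-143-3p, the retained arm of miR-143, was counted 193134 times in control SPCs and 64247 times in knockdown SPCs, which corresponds to 18362 TPM (18281 to 18443) and 20113 TPM (19959 to 20267). It ranked 12th among all miRNAs in the control and 9th in the knockdown. Its log2 change was 0.13 (0.12 to 0.14), which is well inside the 1.5-fold limits although it exceeded counting error (adjusted p = 1.7e-86, exact binomial test). The other arm, miR-143-5p, had 30 and 9 reads, and its log2 change of -0.02 (-1.28 to 1.09) shows that a change of about 2-fold in either direction was not detectable at this depth.

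miR-145a-5p, which is known for promoting the contractile smooth muscle state, was far less abundant than its neighbour miR-143-3p. Its counts were 1199 and 318 reads, that is 114 TPM (108 to 121) and 99.6 TPM (88.9 to 111). Its log2 change was -0.20 (-0.38 to -0.02) and did not pass the test over all miRNAs (adjusted p = 0.092, exact binomial test), and with median ratio scaling it lay on the other side of 0, at 0.057. miR-145a-3p had 257 and 81 reads and a log2 change of 0.05 (-0.33 to 0.42), and for both arms the counting intervals of the libraries overlapped.

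Mir143 (chr18:61649196-61649258) and Mir145a (chr18:61647825-61647894) lie on the minus strand of GRCm38, 1301 bp apart, in an intron of the only transcript annotated for the noncoding gene Carmn. Since a ratio of 2 miRNAs within a library does not depend on the library total, the ratio of these neighbours was compared directly. For each read of miR-145a-5p there were 161 reads of miR-143-3p in control SPCs, compared with 202 in knockdown SPCs. This is a log2 change of 0.33 (0.15 to 0.50) in favour of miR-143-3p (adjusted p = 5.8e-04, Fisher's exact test over 146 pairs of neighbouring hairpins), and it was under 1.5-fold. The ratio of miR-143-3p to miR-145a-3p was 751 and 793, with an interval of the change that included 0 (-0.29 to 0.43).

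miR-199a-3p and miR-199b-3p are a single RNA by sequence, known for its abundance in fibroblasts. Under the name miR-199a-3p, 46596 control reads and 20093 knockdown reads were listed, or 4430 TPM and 6290 TPM. Under the name miR-199b-3p, 22311 and 9531 reads were listed, or 2121 and 2984 TPM. The first name held 67.6% (Wilson interval 67.3 to 68.0%) of the shared reads in the control and 67.8% (67.3 to 68.4%) in the knockdown, close to the 66.7% that its 2 of 3 hairpins would hold with an equal part for each, although both intervals lie above that value. Another 2 groups of identical mature sequences in the files were divided in the same manner, as miR-465b-3p and miR-465c-3p, with 2 of 5 hairpins each, held 40.1% and 39.9% of the control reads they share with miR-465a-3p, and let-7a-1-3p and let-7c-2-3p, with 1 hairpin each, had 156 control reads each. How the authors assigned such reads is not given in the sources used here. The levels of miR-199a-3p and miR-199b-3p are therefore not independent measurements, and neither gives the output of its own locus.

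Summed over both names, miR-199-3p had 68907 control reads and 29624 knockdown reads. Its level went from 6551 to 9274 TPM, a log2 change of 0.50 (0.48 to 0.52), under 1.5-fold. The names taken singly changed by 0.51 (0.48 to 0.53) and 0.49 (0.46 to 0.53), and with 1 common total by -1.21 for miR-199a-3p and -1.23 for miR-199b-3p.

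The 5p forms separate miR-199a from miR-199b. miR-199a-5p had 22105 control reads and 7453 knockdown reads, at 2102 TPM (2074 to 2129) and 2333 TPM (2281 to 2387). Its log2 change of 0.15 (0.11 to 0.19) was close to that of miR-143-3p. miR-199b-5p had only 319 and 185 reads, at 30.3 TPM (27.1 to 33.8) and 57.9 TPM (49.9 to 66.9). These intervals did not overlap, and with a log2 change of 0.93 (0.66 to 1.20) it was the member with the largest rise in the deposited TPM (adjusted p = 8.1e-11, exact binomial test), which turned to -0.78 with 1 common total. Its reads equalled 1.44% of the miR-199a-5p reads of control SPCs and 2.48% of those of knockdown SPCs, a log2 change of the miR-199a-5p to miR-199b-5p ratio of -0.78 (-1.05 to -0.52). These 5p forms are closely related in sequence, and the part of misread miR-199a-5p in the reads of miR-199b-5p was not tested.

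miR-214 was the member whose arms had changes of opposite sign that both passed the test. miR-214-3p, the more abundant arm, had 4449 control reads and 1009 knockdown reads, or 423 TPM (411 to 436) and 316 TPM (297 to 336). miR-214-5p had 691 and 310 reads, or 65.7 TPM (60.9 to 70.8) and 97.0 TPM (86.5 to 108). With the deposited TPM the 3p arm was thus lower in the knockdown and the 5p arm higher, and for neither arm did the intervals of the libraries overlap. The log2 changes were -0.42 (-0.52 to -0.32) and 0.56 (0.36 to 0.76), both within 1.5-fold and both past the exact binomial test (adjusted p = 4.9e-17 and 1.4e-07). With 1 common total both arms were lower, at -2.14 for miR-214-3p and -1.15 for miR-214-5p. The sign of the 5p arm therefore depends on the total, while that of the 3p arm was the same under every scaling run and the ratio of the arms does not involve the total.

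The share of the 5p arm in the reads of each hairpin was therefore compared. For miR-214 it was 13.4% (Wilson interval 12.5 to 14.4%) in control SPCs and 23.5% (21.3 to 25.9%) in knockdown SPCs, a 1.98-fold higher 5p to 3p ratio (log2 change 0.98, 0.77 to 1.20, adjusted p = 1.3e-16, Fisher's exact test over 273 hairpins). For miR-199a the shift had the other direction, from 32.2% (31.8 to 32.5%) to 27.1% (26.5 to 27.6%), a log2 change of -0.35 (-0.40 to -0.31). For miR-145a the 5p arm held 82.3% (80.3 to 84.2%) and 79.7% (75.5 to 83.4%), a difference within counting error. For miR-143 it held 0.0155% and 0.0140%, and a difference was not detectable at this depth. miR-199b went from 1.41% (1.26 to 1.57%) to 1.90% (1.65 to 2.20%), but its 3p reads are the shared ones described above. With miR-199a and miR-199b pooled, which avoids the division of shared reads and was chosen after their values were seen, the 5p share was 24.6% and 20.5%, a log2 change of -0.34 (-0.38 to -0.29).

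Of the 5 member hairpins, 1 (miR-214) was past 1.5-fold in its arm ratio and 3 passed Fisher's exact test, whereas 54.9% of all 273 hairpins were past 1.5-fold and 19.4% passed the test. The 3 were miR-214, miR-199a and miR-199b, and the 3p counts of miR-199a and miR-199b are parts of the same shared reads. Many of the 273 had few reads on an arm. Of the 107 hairpins with at least 100 reads on each arm over both libraries, 37 (34.6%) were past 1.5-fold, their median absolute log2 change was 0.42, and 8 of them, miR-214 included, had a shift toward the 5p arm as large as that of miR-214 or larger. Arms that differed in sign and both passed the exact binomial test were found for 9 of the 107 hairpins, among them miR-214, miR-140, miR-335 and miR-322. A shift of this size was thus not particular to miR-214.

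**Figure D3:**
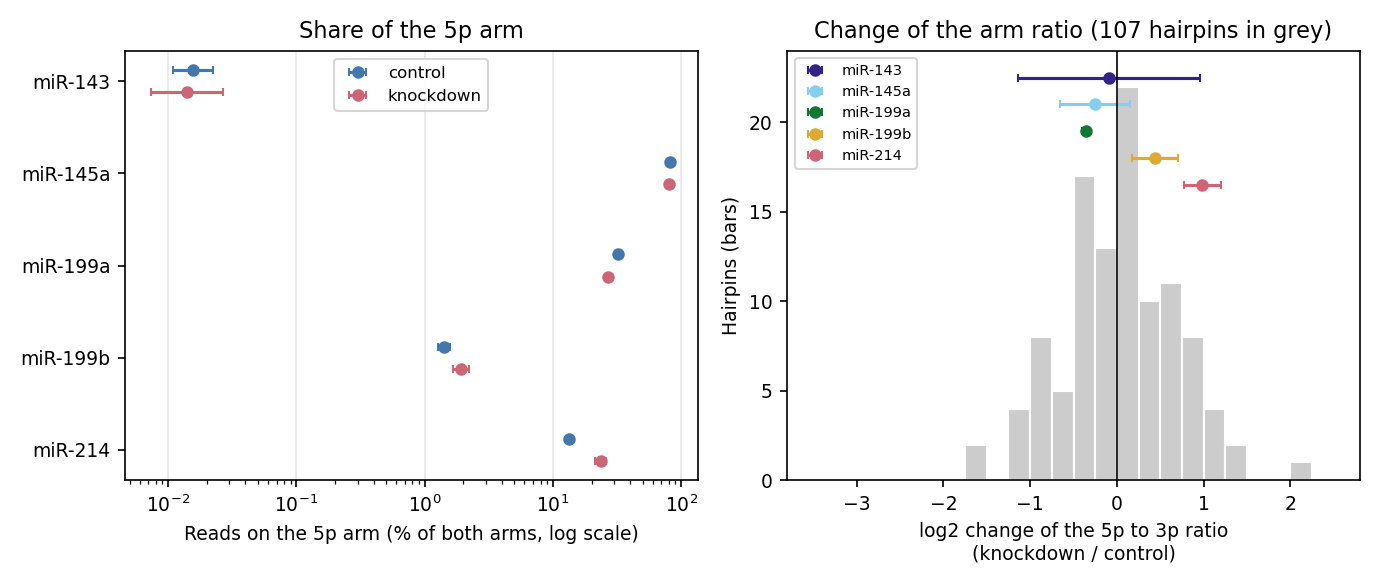
Left, reads on the 5p arm as a percentage of both arms (log axis) for each member hairpin in the control (blue) and the Mov10 knockdown (red), with 95% Wilson intervals. Right, log2 change of the 5p to 3p ratio with 95% intervals for the member hairpins (coloured points, placed at arbitrary heights) above the distribution over the 107 hairpins with at least 100 reads on each arm (grey bars). miR-214 moved from 13.4% to 23.5% and lay at 0.98, and miR-199a at -0.35.

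miR-214 was then compared with miR-199a, with which it shares Dnm3os. For the more abundant arms, 10.5 reads of miR-199a-3p per read of miR-214-3p in the control became 19.9 in the knockdown, a 1.90-fold change (log2 0.93, 0.83 to 1.03, adjusted p = 9.5e-79, Fisher's exact test over 146 pairs). For miR-199a-3p and miR-214-5p the ratios were 67.4 (control) and 64.8 (knockdown), with an interval of the log2 change that included 0 (-0.25 to 0.14). The ratio of miR-199a-5p to miR-214-3p changed by 0.57 (0.47 to 0.68) and that of miR-199a-5p to miR-214-5p by -0.41 (-0.61 to -0.22). The sign of the change in the ratio of these neighbours thus depended on the arm that stood for each hairpin. miR-199a is in addition made at Mir199a-1, and the reads of miR-199a-3p are shared with the identical miR-199b-3p of Mir199b. These ratios therefore do not measure Dnm3os output alone.

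Of the 2 pairs of neighbouring member hairpins, 1 was past 1.5-fold and both passed Fisher's exact test. Among all 146 pairs of adjacent hairpins on the same strand within 10 kb, 47.9% were past 1.5-fold and 62.3% passed the test, and the median absolute log2 change was 0.56. Hairpins present in several copies repeat the same reads in this count, and with each pair of mature miRNAs counted once, which was chosen after seeing the data, 122 pairs remained, of which 45.1% were past 1.5-fold and 60.7% passed the test, with a median of 0.51. The Mir143 and Mir145a pair changed by less than either median and the Mir199a-2 and Mir214 pair by more.

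The levels of miRNAs known from other cell types were set beside the members. Of the marker miRNAs found in the files, none was at 0 in either library. All 8 further miRNAs chosen as abundant in fibroblasts were above the minimum. With the deposited TPM their summed level went from 115072 to 194309 TPM, and 3 of the 8 were raised over 1.5-fold and 0 reduced (median log2 change 0.49). These counts, and those of the lists that follow, stand beside 15.8% raised and 41.5% reduced and a median of -0.37 among all 607 detected miRNAs. The highest of them in the control were miR-21a-5p, miR-22-3p and miR-125b-5p, with log2 changes of 1.04, 0.48 and 0.38, and miR-140-3p was the 1 of the 8 below 0, at -0.40. Much of the summed rise came from miR-21a-5p, which alone went from 51967 to 107056 TPM. The paper describes miR-21a as critical for SPC fate and reports less mature miR-21a in the knockdown by RT-qPCR. That measure used U6 as internal control and is unlike TPM, which is relative to a library total. The members set beside these lists were miR-143-3p, miR-145a-5p, both arms of miR-199a and miR-214-3p, without miR-199b. These 5 summed to 25430 and 29151 TPM, with 0 of 5 past 1.5-fold (median 0.13). The 3p forms of miR-291a, miR-292a, miR-293, miR-294 and miR-295, typical of pluripotent and early germ cells, were listed without their 5p forms. For miR-291a, miR-292a and miR-293 the omitted 5p form had more reads in both libraries (for miR-292a 7918 against 1772 in the control). Of the 5 listed 3p forms, 0 were raised and 3 reduced (939 and 626 TPM, median -0.72), with miR-295-3p, miR-292a-3p and miR-294-3p at -0.47, -0.37 and -1.20. Of the 3 listed 5p forms of miR-34 and miR-449, known from meiotic and later germ cells, 2 were raised and 0 reduced (9482 and 17700 TPM). Their log2 changes were 0.89 for miR-34c-5p, 1.43 for miR-34b-5p and -0.09 for miR-449a-5p. Not listed were, among others, miR-34a-5p (1564 and 756 reads), miR-34b-3p (1970 and 735 reads) and miR-34c-3p (969 and 325 reads). With 1 common total every miRNA of these lists had fewer reads in the knockdown.

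The miRNAs chosen for other somatic cell types had lower sums than the listed members in both libraries, but the member sum was mostly miR-143-3p. Taken singly, miR-126a-5p (503 and 336 TPM) was above miR-214-3p (423 and 316 TPM) and miR-145a-5p (114 and 99.6 TPM). In the control, miR-142a-5p was also above miR-145a-5p. Whether cells of these other types were present was not tested. Endothelial miR-126a summed to 592 and 395 TPM over its arms, with 1 of 2 reduced. The 5 blood cell miRNAs summed to 176 and 34.7 TPM, mostly from miR-142a-5p (158 and 28.8 TPM) and miR-142a-3p (11.5 and 1.57 TPM), and 2 of the 5 were under the minimum. The 4 epithelial miRNAs, of which 2 were above the minimum, summed to 17.7 and 11.6 TPM. The 2 listed striated muscle miRNAs summed to 3.14 and 3.76 TPM. These lists were short, and their sums depend on the miRNAs picked. Not listed were miR-203-3p and miR-205-5p, also known from epithelia, with 2486 and 1668 control reads and 375 and 220 knockdown reads. The listed miR-200b-3p had 134 and 21 reads. miR-486a-5p, known from red blood cells, was not listed either and had 21470 and 3073 reads. With 1 library a group and no library of feeder cells alone, the part of feeder cells in the level or the change of any member was not tested.

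**Figure D4:**
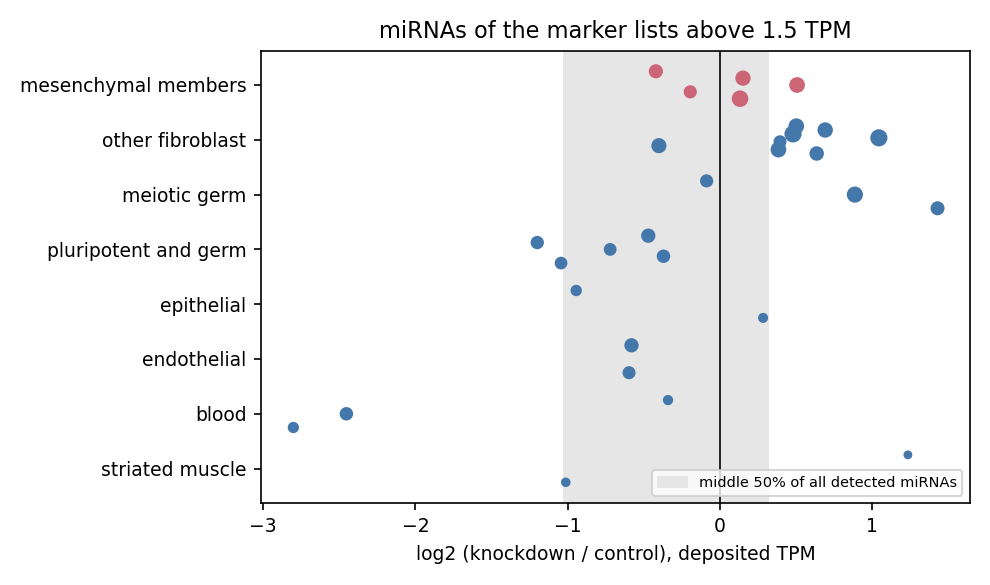
log2 of the knockdown to control ratio (deposited TPM) for each miRNA above 1.5 TPM in the marker lists, where each point is a miRNA, its area grows with the logarithm of its control level, and the grey band holds the middle 50% of all detected miRNAs. The 5 listed members (red, without miR-199b) lay from -0.42 to 0.51, and 7 of the 8 other fibroblast miRNAs lay above 0. The 5 miRNAs of the pluripotent and germ list lay below 0. With 1 common total every value shifts by -1.72.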

How the data were processed

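Small RNAs (TruSeq kit) of shVector control and Mov10 knockdown SPCs were compared, 1 library per group. RNA-seq and CLIP-seq samples of the series were not analysed here. The methods mention triplicate samples, and whether they were pooled is not given in the sources used here. The authors filtered rRNA, trimmed adaptors and mapped reads to miRBase without mismatch in CLC Genomics Workbench. The submitters' processing notes also name Cufflinks 2.1.1. The deposited values are raw counts, 1 for each mature miRNA, beside TPM computed by the authors, and reads over TPM gave the library total.

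Log2 changes used a pseudocount of 0.1 TPM, which understates changes of low miRNAs. Calls needed 1.5-fold and more than 1.5 TPM in the higher library. Reads were compared by two-sided exact conditional binomial tests given the totals, with exact (Clopper-Pearson) intervals. Arm ratios (at least 20 reads in all) and neighbour ratios (at least 20 reads each, within 10 kb) were compared by two-sided Fisher's exact tests, with 0.5 read added and Woolf intervals for the log2 change. All p-values were adjusted by the Benjamini-Hochberg method over the whole table at 0.05. These tests compare 2 libraries. Reads carry no molecular identifiers.

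Positions and sequences came from RefSeq on GRCm38, with 1089 of 1096 miRNAs placed and 908 with a sequence. All members and up to 3 highest miRNAs of each marker list were named. So was every miRNA with a sequence that shared a seed with 1 of the 5 members with a sequence. miR-140, miR-140-3p, miR-335, miR-322 and the groups of identical sequence were named after their values were seen. The same holds for the miRNAs described as omitted or not listed. 2 miRNAs of a gonadal list and 1 of the muscle list had no entry under the names used. Members, lists and tests were chosen with earlier results of these data known. The tests were tried on simulated data. Tests ran in scipy 1.17.1 (Python 3.11.15, pandas 2.3.3, numpy 2.4.6), TMM factors came from edgeR 4.0.16 in R 4.3.3, and plots were drawn with matplotlib 3.10.9.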

Additional observations from a re-analysis of the deposited data

How the results depend on the processing

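No paired analysis was possible because only 1 control and 1 knockdown library were analysed, and leaving out a library was likewise not possible. With 1 common total for both libraries, miR-143-3p changed by -1.59, miR-145a-5p by -1.91, miR-145a-3p by -1.65, miR-199a-3p by -1.21, miR-199a-5p by -1.57, miR-199b-3p by -1.23, miR-199b-5p by -0.78 and miR-214-5p by -1.15, with 0 members raised and 10 reduced, and 10 raised and 561 reduced among all miRNAs. This follows from the ratio of the library totals, whose log2 is -1.72. Near 0, miR-145a-5p turned to 0.057 with median ratio scaling and 0.023 with TMM factors, and passed the exact test at -0.25 with totals that leave out the 10 most abundant miRNAs. miR-143-5p turned to 0.046 with miRNA reads as the total, 0.23 with median ratio scaling and 0.19 with TMM factors. The number of members raised was 2 with miRNA reads as the total, 4 with median ratio scaling, 4 with TMM factors and 0 at 2-fold. Among all miRNAs, 186 were raised and 561 reduced without a minimum, 53 and 157 at 10 TPM, 40 and 161 at 2-fold, and 63 were raised when the exact test was also required. With miR-199a and miR-199b pooled, chosen after seeing the data, the arm ratio changed by -0.34. Of the 22424 pooled 5p reads of the control, 22105 were miR-199a-5p, so this value does not describe miR-199b alone. The arm ratio of miR-214 kept its direction and its side of the threshold under every alternative run for it, as did both neighbour ratios with at least 100 reads each and with both arms summed. With a single other arm for a hairpin the neighbour ratios did change, to 0.57, -0.06 and -0.41 for miR-199a over miR-214 and to 0.07 for miR-143-3p over miR-145a-3p. Neighbours within 3 kb did not include Mir199a-2 and Mir214. The minimum of 100 reads on each arm was also chosen after seeing the data. Depth limits miR-143-5p most, with 9 reads in the knockdown.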
